A study of Mus musculus with 6 samples.

Results

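Immediate early genes were followed as a fixed set of 10 genes (Fos, Fosb, Jun, Junb, Egr1, Atf3, Ier2, Ier3, Dusp1 and Zfp36) among the 19060 genes of the count table. They were taken from a list of names, and all 10 were found in the table and passed the filter on low counts, which 15826 genes passed.

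RNA was sequenced from the proximal end of mouse incisors at 1 month of age. The 3 control samples came from Fgfr1fl/fl mice, in which both copies of the FGF receptor gene Fgfr1 are flanked by loxP sites, although a second label field calls them wild type. The 3 mutant samples came from Gli1-Cre;Fgfr1fl/fl mice, the Gli1CreER line of the study, in which tamoxifen switches Cre on in Gli1+ cells only. The loxP-flanked alleles were shared by both groups, tamoxifen was given to both, and the tissue was collected 1 week after it. The comparison asked how gene expression in the proximal incisor differs once FGFR1 is lost from Gli1+ cells, the mesenchymal stem cells of the study. The libraries held the whole dissected end of the tooth, with epithelium, vessels, blood and nerve, so a gene with a lower value could come from fewer cells of a type or from less RNA per cell, which cannot be told apart.

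Immediate early genes are switched on within minutes of a stimulus by proteins that the cell already holds, so no new protein has to be made first. Growth factors act on them through the MAP kinase cascade, which activates serum response factor with its ETS partners and the CREB family. Their transcripts are short-lived, and the set contains its own brakes: DUSP1 inactivates the kinases and the Zfp36 protein speeds the decay of transcripts with AU-rich elements. They are also known to respond to the handling of a tissue during dissection.

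Every control library was deeper than every mutant library, with 31060222 to 32712448 counts against 5276557 to 11819576, and 3.83% to 3.96% of genes at 0 after rounding against 17.1% to 30.3%. Depth and genotype therefore cannot be told apart for low genes. Up to 3 counts can hide behind a count of 0, which corresponds to 0.654, 0.256 and 0.302 CPM (counts scaled to a common library size by the upper quartile) in mutant samples 1, 2 and 3, and to at most 0.0873 CPM in a control sample. This limit covers counting error only. Fgfr1 itself was at 528, 923 and 433 CPM in the controls and at 148, 317 and 261 CPM in the mutants, with a log2 fold change of -1.37 (SE 0.40) and an adjusted p of 0.0881 (edgeR, quasi-likelihood test). The odontoblast gene Dspp, the enamel gene Amelx and the mesenchymal gene Gli1 were detected in all 6 libraries. The summed level of 10 ameloblast and dental epithelium markers was lower in every mutant sample (34036 to 73132 CPM) than in every control sample (86234 to 122070 CPM), and none of those markers was at 0 in a mutant sample. The sum of 7 erythroid markers was higher in every mutant sample (925 to 2556 CPM, against 380 to 833 CPM), with 2 of its genes at 0 in at least 1 mutant sample. The sum of 9 skeletal muscle markers was 2724 CPM in control sample 2 and at most 28.4 CPM in the other controls, and 6106, 161 and 1023 CPM in mutant samples 1, 2 and 3, with 1 gene at 0 in a mutant sample.

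As a group the immediate early genes did not move one way. In edgeR, 0 of 10 had an adjusted p under 0.05, which 6.79% of all genes tested reached (3.06% lower and 3.72% higher in the mutants). At an unadjusted p under 0.05, the p threshold of the study used here without its limit on the fold change, 1 of 10 passed (Ier3, lower in the mutants) against 20.1% of all genes tested (9.13% lower and 11% higher). The groups did not overlap for 2 of 10 (Ier3, with every mutant sample lower, and Dusp1, with every mutant sample higher), against 30.4% of all genes tested (16.3% with every mutant sample lower and 14.1% with every one higher). Of the 10 log2 fold changes, 5 were positive and 5 negative, with a median of -0.0051, beside -0.040 over all genes tested. Over all genes tested 48.2% of the log2 fold changes were positive. The single lower call (1 of 10, beside 9.13%) and the even split of signs were thus near the background, and the other shares were below it.

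**Figure D1:**
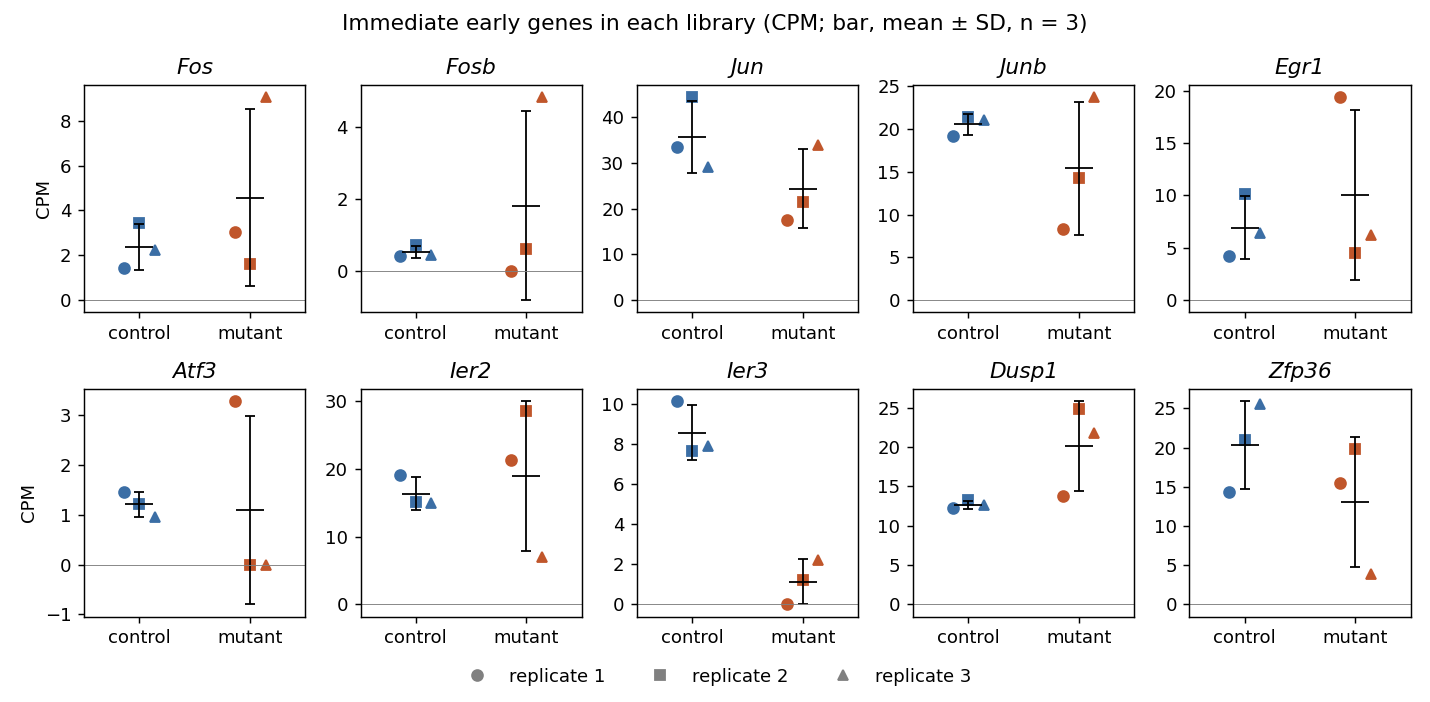
Level of each immediate early gene in CPM (linear axis) in the 3 control (blue) and 3 mutant (orange) libraries, with a symbol for each replicate number and a black bar for the mean ± SD (n = 3). On this scale the SD bar is longer in the mutant group for every gene but Ier3 (1.11 against 1.37 CPM), by little for Jun (8.63 against 7.88 CPM), and the groups separate only for Ier3 and Dusp1.

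The 250 bases upstream of each start in RefSeq (GRCm38.p6) were read for the letters that recruit the inducing factors, since shared promoter letters were not used to choose the genes. An entry was found for 8 of the 10, all but Egr1 and Ier2. Shown here are Fos, the usual reference gene of the set, and Ier3 and Dusp1, the genes whose groups did not overlap, each up to the first exon base of any GENCODE M21 transcript of the gene. They are written 5′ to 3′ along the gene's strand, and capitals mark TGACG or TGACGTCA (the short and full forms of the cAMP response element, on either strand) and TATAAA.
Fos, chr12:85473640-85473889, plus strand: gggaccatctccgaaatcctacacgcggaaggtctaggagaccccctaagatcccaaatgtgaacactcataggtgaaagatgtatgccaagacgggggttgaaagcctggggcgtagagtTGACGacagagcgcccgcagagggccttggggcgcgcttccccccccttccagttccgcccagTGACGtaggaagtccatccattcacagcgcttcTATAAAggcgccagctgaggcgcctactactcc
Dusp1, chr17:26508520-26508722, minus strand: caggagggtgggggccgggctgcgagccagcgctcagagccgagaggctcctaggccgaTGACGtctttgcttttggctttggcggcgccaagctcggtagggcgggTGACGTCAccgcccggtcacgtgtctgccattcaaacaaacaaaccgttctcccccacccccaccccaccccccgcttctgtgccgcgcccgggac
Ier3, chr17:35821463-35821683, plus strand: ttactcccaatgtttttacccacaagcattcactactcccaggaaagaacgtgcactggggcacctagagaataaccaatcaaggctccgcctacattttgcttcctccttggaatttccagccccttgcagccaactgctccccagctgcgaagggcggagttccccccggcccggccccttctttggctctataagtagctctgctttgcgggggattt
Fos held TGACG from 129 to 125 and again from 66 to 62 bases before its start, and TATAAA from 33 to 28 bases before it. Dusp1 held the full TGACGTCA from 143 to 136 bases before its start, which contains TGACG on both strands, and another TGACG from 191 to 187. Ier3 held neither of them, and of the letters searched it had only the GC box GGGCGG, from 96 to 91 bases before its start, which is not capitalised. Over the 8 windows of 250 bases, TGACG was present in 5 (Fos, Fosb, Junb, Atf3 and Dusp1), beside 17.8% of all 32851 promoter windows in the table. The full TGACGTCA was present in 1 (1.55% of all windows), TATAAA in 1 (12.4%), and the CArG box, the site of serum response factor, in 1, that of Zfp36 (1.47%). GGGCGG was present in 7 (32.7%), and the AP-1 site TGAGTCA in 0 (4.46%). The 8 windows had a GC content of 54.4% to 68.8%, beside a median of 52.4% over all windows. The part of base composition in these shares was not tested. Both strands were searched, and these are matches of letters, not sites shown to be bound. Letters further than 250 bases upstream were not searched, so a gene without a match here may hold the site further out.

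The Fos and Jun families form AP-1, a dimer that binds DNA. Fos (chr12:85473890-85477273, plus strand of GRCm38) encodes the partner that rises most steeply after a stimulus in many cells. It had 1.43, 3.46 and 2.25 CPM in control samples 1, 2 and 3 and 3.05, 1.62 and 9.05 CPM in the mutants. Mutant sample 3 was the highest of all 6, and the other mutant samples lay inside the control range, so the groups overlapped. The means were 2.38 ± 1.02 and 4.58 ± 3.95 CPM (SD, n = 3), the log2 fold change was 0.95 (SE 0.99, 95% interval -1.34 to 3.23), and the adjusted p was 0.682 in edgeR's test. Without mutant sample 3 the log2 fold change was -0.052. These values rest on 14, 19 and 90 counts in the mutants.

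Fosb (chr7:19302696-19310051, minus strand), a close relative of Fos that also dimerises with Jun proteins, was the lowest of the set in the controls. It had 0.407, 0.713 and 0.433 CPM in the controls and 0, 0.597 and 4.83 CPM in the mutants. As for Fos, mutant sample 3 was the highest, and mutant sample 1 was at 0, where up to 0.654 CPM would go unseen. Its log2 fold change was 1.81 (SE 1.44, 95% interval -1.50 to 5.13, adjusted p = 0.568, edgeR), and it was -0.57 without mutant sample 3.

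Jun (chr4:95049034-95052222, minus strand) encodes the AP-1 subunit that JNK phosphorylates. Its level was 33.6, 44.4 and 29.0 CPM in the controls and 17.4, 21.6 and 34.0 CPM in the mutants. Mutant samples 1 and 2 lay below all controls, and mutant sample 3 lay inside their range. The means were 35.7 ± 7.88 and 24.3 ± 8.63 CPM (SD, n = 3), with a log2 fold change of -0.55 (SE 0.35, 95% interval -1.36 to 0.27) and an adjusted p of 0.461 in edgeR's test. Without mutant sample 3 the log2 fold change was -0.88 (edgeR, unadjusted p = 0.0391, adjusted p = 0.171). In that fit 4358 of 17123 genes tested passed an unadjusted p under 0.05. An antisense gene, Junos, overlaps Jun, and whether counting used strand is not given in the sources used here, so reads of the pair cannot be told apart.

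Junb (chr8:84974484-84978718, minus strand), an AP-1 subunit that often restrains Jun, showed the same order of mutant samples. It had 19.2, 21.4 and 21.1 CPM in the controls and 8.28, 14.2 and 23.7 CPM in the mutants. The controls differed by little (20.6 ± 1.18 CPM, SD, n = 3), while the mutant samples ran from below to above them (15.4 ± 7.80 CPM). For Junb the log2 fold change was -0.41 (SE 0.46, 95% interval -1.46 to 0.64, adjusted p = 0.707, edgeR). The protein-coding gene Prdx2 on the other strand overlaps its annotated span.

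Atf3 (chr1:191170296-191218039, minus strand) encodes a stress-induced bZIP factor that can pair with Jun. Its level was 1.45, 1.21 and 0.952 CPM in the controls, 3.27 CPM in mutant sample 1, and 0 in mutant samples 2 and 3, where the limits are 0.256 and 0.302 CPM. It was therefore highest in mutant sample 1 and lowest in the other mutant samples, both under every control. The log2 fold change was -0.22 with an SE of 1.75 (95% interval -4.25 to 3.80, adjusted p = 0.967, edgeR). Without mutant sample 1 both remaining mutant samples were at 0 and the unadjusted p was 0.00269 (edgeR, adjusted p = 0.0539), whereas without mutant sample 2 or 3 the log2 fold change was 0.37 or 0.36.

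Egr1 (chr18:34859823-34864984, plus strand) encodes a zinc finger transcription factor and is a widely used readout of ERK activity. It had 4.25, 10.2 and 6.38 CPM in the controls and 19.4, 4.52 and 6.24 CPM in the mutants. Mutant sample 1 was the highest of the 6, while mutant samples 2 and 3 lay within the control range. The log2 fold change was 0.53 (SE 0.77, 95% interval -1.24 to 2.29, adjusted p = 0.786, edgeR), and it was -0.38 without mutant sample 1. In each group the library with the highest Egr1, control sample 2 and mutant sample 1, was also the one with the highest sum of skeletal muscle markers, and the part of muscle in the values of Egr1 was not tested.

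Ier2 (chr8:84661331-84662852, minus strand) encodes a small nuclear protein induced by growth factors. It had 19.1, 15.1 and 14.9 CPM in the controls and 21.4, 28.6 and 6.94 CPM in the mutants. Mutant samples 1 and 2 were above all controls and mutant sample 3 below them, whereas Jun and Junb had their highest mutant value in sample 3. Ier2 had a log2 fold change of 0.21 (SE 0.54, 95% interval -1.03 to 1.45, adjusted p = 0.888, edgeR). Its sign was not stable, with -0.023 when libraries were scaled by total counts alone and -0.23 without mutant sample 2.

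Ier3 (chr17:35821684-35822923, plus strand) encodes a stress-inducible regulator of cell survival, and its difference was the largest of the 10. It had 10.1, 7.63 and 7.90 CPM in the controls (348, 278 and 274 counts) and 0, 1.19 and 2.21 CPM in the mutants (0, 14 and 22 counts). Every mutant sample was below every control sample, and the 0 in mutant sample 1 allows no more than 0.654 CPM. The means were 8.55 ± 1.37 and 1.14 ± 1.11 CPM (SD, n = 3). The log2 fold change was -2.86 (SE 1.18, 95% interval -5.58 to -0.14), with an adjusted p of 0.224 in edgeR's fit across all genes (unadjusted p = 0.0414). Over the 17 alternatives it ran from -4.00 to -2.34, the adjusted p from 0.0468 to 0.515, and the unadjusted p was under 0.05 in 12. The call was lost without control sample 1, 2 or 3 (unadjusted p = 0.124, 0.0922 and 0.0998 in edgeR's fit across all genes) and without mutant sample 2 (0.0748). DESeq2 and limma-voom gave adjusted p-values of 0.0471 and 0.0468. Ameloblast and dental epithelium markers were also lower in every mutant sample (34036 to 73132 against 86234 to 122070 CPM), as was the depth, and their part in the values of Ier3 was not tested.

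Dusp1 (chr17:26505590-26562128, minus strand) encodes the nuclear phosphatase that inactivates p38, JNK and ERK. It had 12.2, 13.2 and 12.6 CPM in the controls and 13.7, 24.8 and 21.7 CPM in the mutants. All mutant samples were above all controls, mutant sample 1 by the least. The means were 12.7 ± 0.509 and 20.1 ± 5.72 CPM (SD, n = 3), the log2 fold change was 0.67 (SE 0.41, 95% interval -0.27 to 1.61), and the adjusted p was 0.428 (edgeR). Without mutant sample 1 the log2 fold change was 0.86 (edgeR, unadjusted p = 0.0235, adjusted p = 0.118). In that fit 4614 of 17227 genes tested passed an unadjusted p under 0.05. Erythroid markers were likewise higher in every mutant sample (925 to 2556 against 380 to 833 CPM), and their part in the values of Dusp1 was not tested. The annotated span of Dusp1 overlaps Ergic1 on the other strand, the processed pseudogenes Gm8225 and AC122252.4, and a sense intronic transcript.

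Zfp36 (chr7:28376784-28380253, minus strand) encodes tristetraprolin, which binds AU-rich elements and recruits the deadenylases. It had 14.4, 21.0 and 25.5 CPM in the controls and 15.5, 19.9 and 3.82 CPM in the mutants. Mutant samples 1 and 2 lay inside the control range and mutant sample 3 far below it. Zfp36 had a log2 fold change of -0.64 (SE 0.61, 95% interval -2.05 to 0.77, adjusted p = 0.649, edgeR). An antisense gene, Gm44710, overlaps it.

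**Figure D2:**
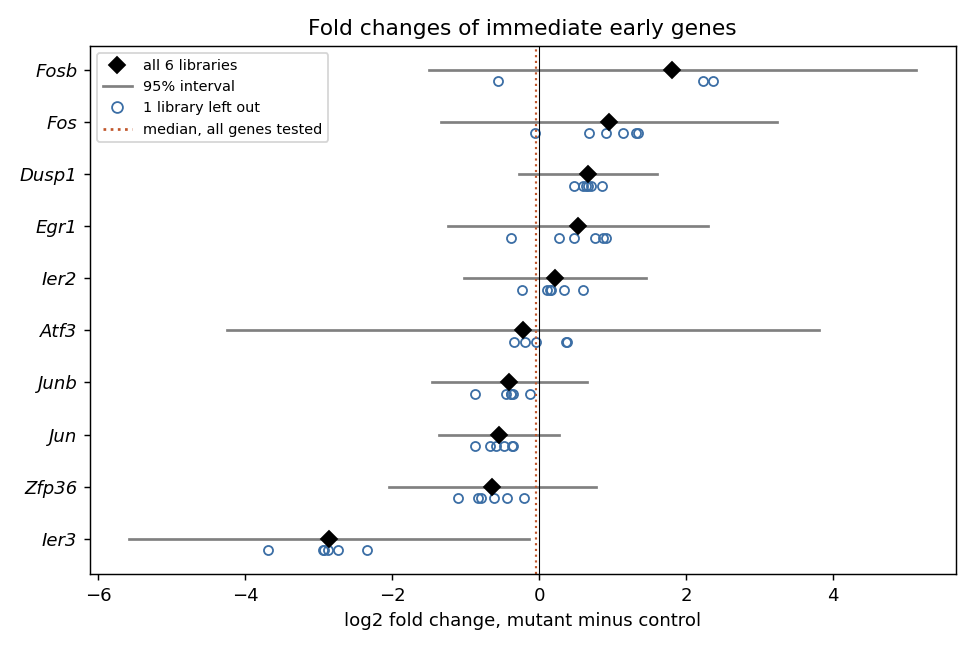
Log2 fold change (mutant minus control) of each immediate early gene with all 6 libraries (black diamond), its 95% interval (grey line) and the value with 1 library left out (blue circles), with the median of all genes tested as a dotted line. Only the interval of Ier3, -5.58 to -0.14, excludes 0, and the fit of Atf3 without mutant sample 1 is not drawn because both remaining mutant samples were at 0.

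The mutant libraries differed in which of the genes they were high for. Among the mutant samples, sample 3 was the highest for 5 genes (Fos, Fosb, Jun, Junb and Ier3), sample 2 for 3 (Ier2, Dusp1 and Zfp36) and sample 1 for 2 (Egr1 and Atf3). Mutant sample 3 was also the lowest for Ier2 and Zfp36, so no mutant library was high for the whole set. Among the controls, sample 2 was the highest for 6 genes, sample 1 for 3 and sample 3 for 1. The summed CPM of the 10 genes was 116, 138 and 121 in the controls and 102, 117 and 113 in the mutants, with overlapping ranges. Their mean log2 CPM, in which low genes weigh as much as high ones, was 2.68, 3.02 and 2.76 in the controls and 2.01, 2.14 and 2.48 in the mutants, so every mutant sample was lower. The mean log2 CPM of all genes tested was also lower in every mutant sample, with 3.66, 3.58 and 3.57 in the controls and 2.84, 3.48 and 3.36 in the mutants.

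On the log2 scale the spread between mutant samples exceeded that between control samples for all 10 genes. The median SD of log2 CPM over the 10 was 0.297 in the control and 1.16 in the mutants. Among all genes tested the mutant SD was the larger for 74.2%, with median SDs of 0.351 and 0.676, and among the 9417 genes within the range of levels of the 10 it was the larger for 85.9%, with median SDs of 0.353 and 1.05. Dusp1 and Jun had the smallest SDs among the mutant samples, 0.446 and 0.491, and Atf3, Fosb and Ier3, each at 0 in at least 1 mutant library, the largest, 3.01, 2.88 and 2.48. Lower depth in the mutant libraries widens the spread of low counts, and its part in these SDs was not tested.

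**Figure D3:**
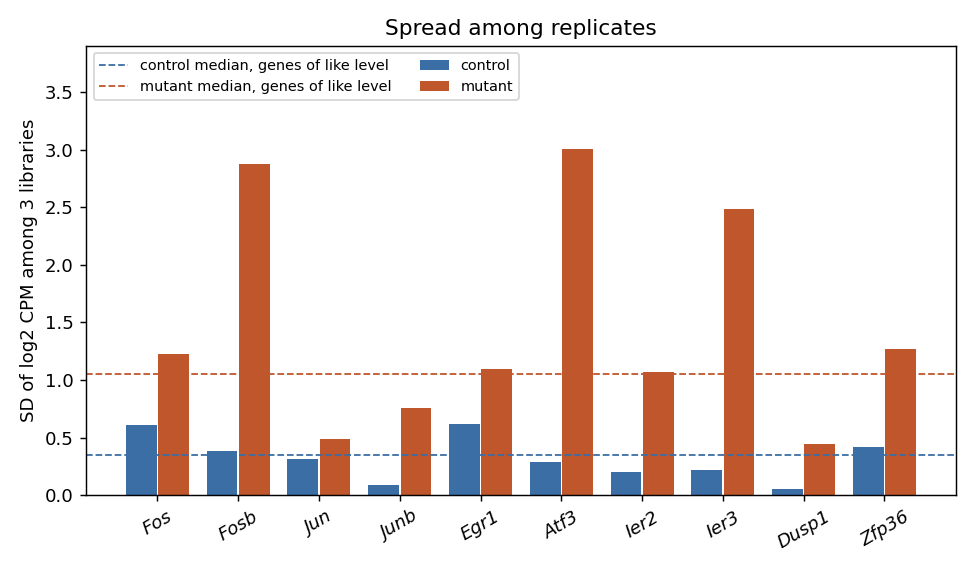
SD of log2 CPM among the 3 control (blue bars) and the 3 mutant (orange bars) libraries for each immediate early gene, with the median SD of genes of like level as dashed lines (0.353 for control and 1.05 for mutant). The orange bar is the taller one for all 10 genes, and those of Fosb, Atf3 and Ier3 stand furthest above the mutant median.

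Levels can be compared between genes only per length of transcript. In CPM per kilobase of transcript, the control means were 11.4 for Junb, 11.2 for Jun, 10.8 for Ier2, 7.56 for Ier3, 7.28 for Zfp36, 6.37 for Dusp1, 1.54 for Egr1, 1.13 for Fos, 0.607 for Atf3 and 0.137 for Fosb. Neighbours in this order overlapped between the control samples except Ier2 and Ier3, Dusp1 and Egr1, and Atf3 and Fosb. Among all genes tested, Junb stood at the percentile 70.6 of this scale and Fosb at the percentile 2.10. In the mutant samples the order was Ier2 (12.5), Dusp1 (10.1), Junb (8.52), Jun (7.63), Zfp36 (4.68), Egr1 (2.24), Fos (2.17), Ier3 (1.00), Atf3 (0.549) and Fosb (0.478), and every pair of neighbours overlapped. Ier3 went from the fourth to the eighth place and from the percentile 60.6 to 17.7, and Dusp1 from the sixth to the second place and from the percentile 56.4 to 67.6.

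Ratios between members in the same library depend on the scaling only through the prior count, which was added to each gene in proportion to the library size. This matters for low counts. The log2 ratio of Jun to Junb (prior count 2) was 0.80, 1.05 and 0.46 in the controls and 1.07, 0.60 and 0.52 in the mutants, with means of 0.77 ± 0.30 and 0.73 ± 0.30 and a difference of -0.046 (SD, n = 3, exact permutation test, p = 1). The log2 ratio of Fos to Jun was -4.47, -3.65 and -3.64 in the controls and -2.48, -3.66 and -1.90 in the mutants, with a difference of 1.24 that did not pass (exact permutation test, two-sided, p = 0.3). The log2 ratio of Egr1 to Fos was nearly constant in the controls (1.52, 1.53 and 1.47) and ran from -0.53 to 2.63 in the mutants (exact permutation test, p = 0.7). Fos to Fosb gave p = 1 in the same exact permutation test. Its value in mutant sample 1, 5.11, was set largely by the prior count, because Fosb was at 0 there. Over these 4 ratios the adjusted p was 1 for each, and 0.1 is the smallest p that 3 samples against 3 allow.

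Genes around the set were read from lists of related function. Of the other AP-1 and related bZIP genes, 10 of 12 were tested, 1 rose, 1 fell and 8 did not pass an unadjusted p under 0.05. That is 20% passed, beside 20.1% of all genes tested, with a median log2 fold change of 0.38. Batf, a bZIP partner of Jun proteins best known in lymphocytes, rose by 1.39 on the log2 scale (adjusted p = 0.120, edgeR), and Mafg, a small Maf protein, fell by 1.01 (adjusted p = 0.0931, edgeR). Batf did not pass without control sample 3. Jund, the most abundant of them, was at 127 ± 5.62 CPM in control and 112 ± 25.1 CPM in mutant samples (SD, n = 3). The median of this list was -0.19 with limma-voom, -0.26 with the replicate number as a block, -0.059 without mutant sample 1 and -0.13 without mutant sample 2. Without mutant samples 1, 2 and 3, 11 of its genes were tested, and 5, 4 and 4 passed. Over all genes 4614 of 17227, 4733 of 17099 and 4358 of 17123 passed in these fits.

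Of 42 other rapid response genes tested of 44 listed, 2 rose and 7 fell at an unadjusted p under 0.05, with 5 of the 7 at an adjusted p under 0.05 and a median log2 fold change of -0.11. Rhob, a small GTPase, fell in every mutant sample, from 354, 230 and 394 CPM to 151, 142 and 158 CPM (log2 fold change -1.12, SE 0.27, adjusted p = 0.0476, edgeR). Plk3, a stress kinase, and Egr2, a relative of Egr1, had 0 counts in all mutant samples and were at least 3.32-fold and 2.63-fold lower there, against the limit of 3 counts per library. The antiproliferative gene Tob1 rose by 0.85 on the log2 scale and the survival gene Mcl1 by 0.63, with adjusted p-values of 0.154 and 0.159 (edgeR). Tob1 did not pass without control sample 1 or 2 or mutant sample 1, nor Mcl1 without control sample 3 or mutant sample 1 or 2. The median was -0.33 without mutant sample 1. In both directions together 21.4% of the list passed, beside 20.1% of all genes tested, and downward 16.7% passed, beside 9.13%. At the adjusted p 11.9% of the list were lower, beside 3.06% of all genes tested. The adjusted p-values of these 5 genes ran from 0.0464 to 0.04998 (edgeR). They include Plk3 and Egr2, and Tnfaip3, which had counts in only 1 mutant sample. For these low genes depth and genotype cannot be told apart, so the share is not a measure of genotype alone.

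Upstream of the set, 14 of 14 inducing factors and coactivators were tested, of which 3 rose, 1 fell and 10 did not pass (28.6% passed, beside 20.1% of all genes tested), with a median of -0.23. The CREB family members Atf1 and Crem rose by 1.03 and 1.37 on the log2 scale (adjusted p = 0.0958 and 0.215, edgeR), the coactivator gene Crebbp by 0.60 (adjusted p = 0.248, edgeR), and Elk1, an ETS partner of serum response factor, fell by 1.79 (adjusted p = 0.142, edgeR). The call of Crem was lost without any 1 of the control samples or without mutant sample 3. That of Elk1 was lost without control sample 1, and that of Crebbp without control sample 1 or 3 or any 1 of the mutant samples. Of the list, 1, 2 and 2 passed without control sample 1, control sample 3 and mutant sample 3. Over all genes 2678 of 15519, 2006 of 15600 and 4358 of 17123 passed in these fits. Of 19 MAP kinase cascade genes, 1 rose, 6 fell and 12 did not pass, with a median of -0.25. That is 36.8% passed, beside 20.1% of all genes tested, and 31.6% lower, beside 9.13%. Mapk3, which encodes ERK1, fell by 1.03 on the log2 scale (adjusted p = 0.0458, edgeR). Mapk8, which encodes JNK1, rose by 1.02 (adjusted p = 0.124, edgeR). Of these MAP kinase genes, 4, 4 and 3 in place of 7 passed without control samples 1, 2 and 3. Over all genes 2678 of 15519, 2296 of 15490 and 2006 of 15600 passed in these fits. With the length and GC correction 4 of 19 passed, 3 of them lower, beside 2518 of 15826 genes tested, 1508 of them lower. The median of the list was -0.43 without mutant sample 2.

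Of the brakes, Dusp4 was the only 1 of 9 other MAP kinase phosphatases, and of 12 FGF feedback and ETS genes, that passed. That is 11.1% and 8.33% of these lists, beside 20.1% of all genes tested. Dusp4 had 44, 52 and 51 counts in the controls and 0 in all mutant samples, and was at least 3.45-fold lower there. It passed the filter through the control libraries alone, so depth and genotype cannot be told apart for it. With a mean of at least 50 counts required, 0 of 8 phosphatases and 0 of 10 feedback genes passed, beside 2418 of 13168 genes tested. Dusp6, the most abundant of these phosphatases, had 24.9 ± 1.67 CPM in control and 33.7 ± 11.7 CPM in mutant samples (SD, n = 3), and Spred1, the most abundant of the feedback genes, had 73.5 ± 8.54 and 96.7 ± 21.3 CPM. The medians of the phosphatases and of the feedback genes were -0.060 and -0.28, and that of the phosphatases was -1.41 with limma-voom. Without mutant sample 2, 2 genes of each list passed, beside 4733 of 17099 genes tested. Of 21 AU-rich element binding proteins and deadenylases, 1 rose and 3 fell, with a median of 0.027. That is 19% passed, beside 20.1% of all genes tested. Hnrnpd rose by 0.93 on the log2 scale (adjusted p = 0.0889, edgeR), while Mapkapk2, the kinase that inhibits tristetraprolin, fell by 0.99 (adjusted p = 0.0508, edgeR) and Cnot3 had a log2 fold change of -1.12 (adjusted p = 0.144, edgeR), a call that was lost without control sample 2 or 3. Zfp36l1, the close relative of Zfp36, was at 87.0 ± 15.6 CPM in control and 138 ± 51.1 CPM in mutant samples (SD, n = 3, adjusted p = 0.277, edgeR). Of this list, 7 passed without mutant sample 1 and 2 without control sample 3, beside 4614 of 17227 and 2006 of 15600 genes tested.

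Downstream, 11 of 13 AP-1 target genes were tested, of which 1 rose, 1 fell and 9 did not pass, with a median of -0.10. That is 18.2% passed, beside 20.1% of all genes tested. Timp1, a metalloproteinase inhibitor, rose by 0.82 on the log2 scale (adjusted p = 0.153, edgeR), and its log2 fold change was -0.15 once transcript length and GC content were corrected for. The call of Timp1 was lost without control sample 2 or 3. Cd44, the most abundant, was at 264 ± 83.8 and 172 ± 46.6 CPM (SD, n = 3). Of 10 cytokine and related transcripts with AU-rich elements, 3 were in the table and 1, Ptgs2, was tested, with 0.582, 1.26 and 0.721 CPM in the controls and 2.18, 2.90 and 0 CPM in the mutants. Of 13 heat shock genes, which often rise with tissue stress, 1 rose and 1 fell (15.4% passed, beside 20.1% of all genes tested). Their median was 0.21, or 0.028 without mutant sample 3. The mitochondrial chaperonin gene Hspe1 rose by 1.97 on the log2 scale (adjusted p = 0.0445, edgeR), and reads of processed pseudogene copies could enter its count. Hspb1 fell by 0.63 (adjusted p = 0.235, edgeR), a call that was lost without control sample 1 or 3 or mutant sample 2 or 3. Hspa8, the most abundant, was at 1179 ± 339 and 1617 ± 384 CPM (SD, n = 3).

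The calls in the related lists depended on the processing. Batf, Mafg, Tob1, Crem, Mapk8, Hnrnpd and Cnot3 no longer passed an unadjusted p under 0.05 once length and GC content were corrected for, and Tob1, Mcl1, Crem, Crebbp, Mapk8 and Timp1 did not pass with scaling by total counts alone. Crebbp also did not pass with TMM or relative log expression scaling, DESeq2, no filter or a mean of at least 50 counts. Nor did Elk1 and Cnot3 with limma-voom, Hspb1 among protein-coding genes only, or Crem with the replicate block. Rhob, Mapk3, Mapkapk2 and Hspe1 passed it under all 17 alternatives. The adjusted p of Rhob ran from 0.000594 to 0.235, that of Mapk3 from 0.000616 to 0.19 and that of Hspe1 from 1.25e-05 to 0.245 over those alternatives (edgeR, DESeq2 and limma), and it was under 0.05 in 6, 5 and 8 of them.

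**Figure D4:**
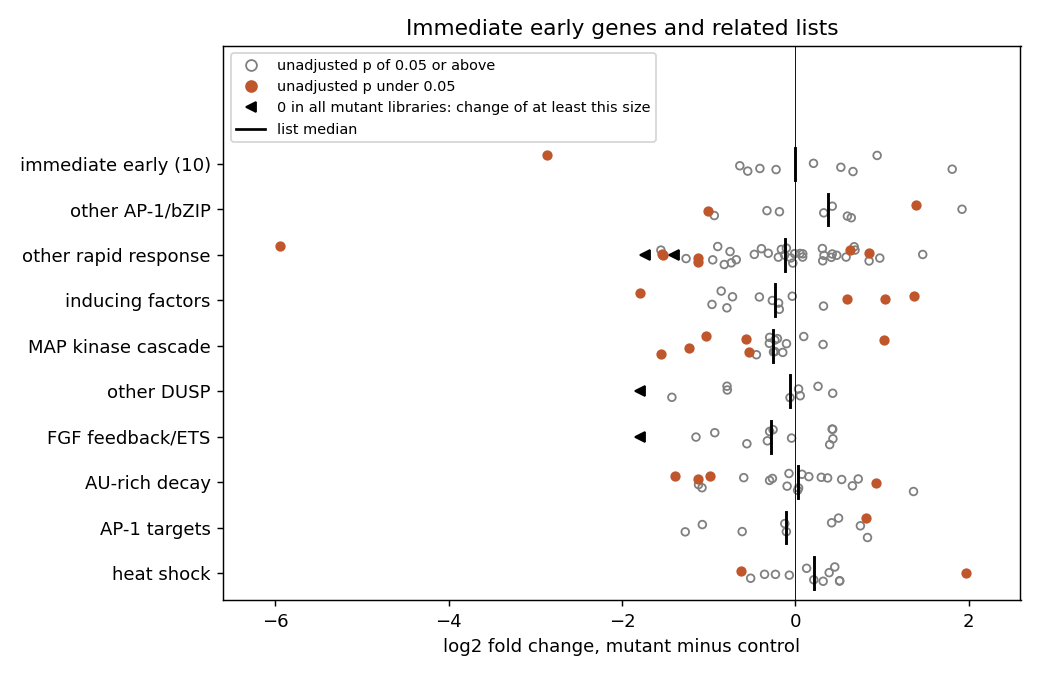
Log2 fold change (mutant minus control) of the 10 immediate early genes and of the genes of related lists, with filled points for an unadjusted p under 0.05 and a bar for each list's median. Triangles stand for genes at 0 in all mutant libraries, drawn at the smallest change that the limit of 3 counts allows, and the leftmost point, Tnfaip3, had counts in only 1 mutant library. The points of the immediate early genes lie on both sides of 0 with a median of -0.0051.

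The profile of the set over the 6 samples, the mean of the 10 centred log2 CPM values, was compared with 9699 other genes of at least 10 CPM. The genes nearest to it were Ilrun, Naa25, Ints3, Pdpr, Pum2 and Tcf3, with root mean square differences from 0.0655 to 0.0886 over 6 samples, beside a median of 0.578 over all candidates. These are genes at 11.1 to 100.4 CPM that were lower in every mutant sample. The members did not all share that direction, since 5 of their 10 log2 fold changes were positive. In the mean profile a member at 0 enters through the prior count, and 2, 1 and 1 members were at 0 in mutant samples 1, 2 and 3. The part of these zeros in the profile was not tested. The members themselves lay further from their own mean, from 0.181 for Jun to 2.06 for Ier3, so the mean profile described no single member closely except Jun.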

How the data were processed

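RNA from 3 control and 3 mutant samples of the proximal incisor was sequenced as single reads. In Partek Flow the authors trimmed the reads and aligned them to mm10. What they deposited are estimated counts for each gene, which need not be whole and were not normalized. The submitters' processing notes name TopHat2 2.0.8 without its role. The counting model, the annotation and the use of strand are not given in the sources used here. A table of the authors' own comparison (p-values, ratios, fold changes and group means) was not used. Samples were grouped by their titles. The labels do not say that each sample is a separate animal, so p-values measure the spread between these samples.

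Counts were rounded to whole numbers and compared with edgeR 4.0.16 in R 4.3.3 (upper-quartile scaling, two-sided quasi-likelihood test, Benjamini-Hochberg adjustment over 15826 genes). The default filter on low counts asked for 10 counts, scaled to the median library, in as many libraries as a group holds. It also asked for 15 counts in total. A gene could therefore pass through the control libraries alone. SEs were computed as the log2 fold change divided by the square root of F. GENCODE M21 on GRCm38 gave positions, lengths and GC content. Of the symbols, 18637 matched it as written, 4 by a synonym and 419 had no match. The fit was tested on simulated data. DESeq2 1.42.0, limma 3.58.1, other scalings and filters, a correction for length and GC content, the replicate number as a block and each library left out were alternatives.

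The members and the related lists were chosen with earlier results of these data known. The genes named are the members, in each related list up to 2 higher and 2 lower genes with the smallest unadjusted p under 0.05 and the most abundant gene, the 6 genes of at least 10 CPM with the profile nearest to the mean of the members, and Fgfr1. Of the genes so selected, 3 are counted in their lists but are not reported or drawn here. Tnfaip3 was named in the text and in a caption after its values were seen. Precision is limited by depth, from 5276557 to 32712448 counts per library.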

Additional observations from a re-analysis of the deposited data

How the results depend on the processing

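The 10 genes were refitted under 17 alternatives, of which 13 could test Fosb and 16 Atf3. None of the 10 passed an adjusted p under 0.05 in edgeR, and 1 (Ier3) passed in DESeq2 and 1 in limma-voom. At an unadjusted p under 0.05 the count was 1, 0 with the replicate number as a block, and 0 to 3 with 1 library left out. Over all genes tested 3180 of 15826 passed, and 2784 with the block. The 3 came without mutant sample 1, where 4614 of 17227 genes passed. The count was 2 without mutant sample 3 (4358 of 17123 genes) and 0 without mutant sample 2 (4733 of 17099). Without control sample 1, 2 or 3 the count was 0 of 9, beside 2678 of 15519, 2296 of 15490 and 2006 of 15600 genes. The median log2 fold change of the 10 was -0.0051, -0.29 with total counts only, -0.26 with the replicate block, and from -0.34 to 0.069 with 1 library left out. Fosb was not tested in the fits without a control sample. The median there is of 9 genes, and the -0.34, without control sample 3, is among those. Total counts alone moved the median of all genes tested from -0.040 to -0.30, so the set moved with it. The sign turned for Ier2 with total counts only (-0.023), with limma-voom (-0.028) and without mutant sample 2 (-0.23), for Egr1 without mutant sample 1 (-0.38), for Fos and Fosb without mutant sample 3 (-0.052 and -0.57), and for Atf3 without mutant sample 2 or 3 (0.37 and 0.36). It turned for Ptgs2 with limma-voom (-0.20), and with the length and GC correction, without and with the block, for Jund (0.22 and 0.19), Spred1 (-0.040 and -0.036) and Timp1 (-0.15 and -0.14), and for Ptgs2 with both (-0.37). With 1 library left out, the log2 fold changes that turned ran from -0.052 to 1.34 for Fos, -0.57 to 2.36 for Fosb, -0.38 to 0.91 for Egr1 and -0.23 to 0.60 for Ier2. Atf3 ran from -7.95 to 0.37, the first a fitted value with both remaining mutant samples at 0 and no bound. The cause was not tested. Over all genes, 1074 passed the adjusted p, 229 with no filter, 370 when a mean of 50 counts or more was required, 508 with the replicate block, 140 with the length and GC correction, 119 with both, 50 among protein-coding genes only, and 76 to 606 with 1 library left out, so the adjusted p-values of single genes near 0.05 depend on these choices. At the unadjusted p, 3180 passed, 4774 with no filter, 1852 with the block and the length and GC correction, and 2006 to 4733 with 1 library left out. The higher and lower genes at that p were 1735 and 1445, 1530 and 1771 with TMM, 1261 and 2364 with total counts only, and 1010 and 1508 with the length and GC correction. Same-numbered samples of the 2 groups correlated by 0.0472, 0.00937 and 0.0548 in their deviations from the group means. These correlations were small, although 6 of 6 samples correlated best with their own number. With so few samples they cannot decide whether the samples were paired. The paper's methods speak of 3 pairs of samples without saying what was paired, and the labels name no pairs. The block took the unadjusted p of Ier3 to 0.0656 and ended the calls of Dusp4 (0.0604), Plk3 (0.0628) and Egr2 (0.0774), leaving 0 called genes among the other phosphatases and among the FGF feedback and ETS genes. Depth limits Fosb, Atf3 and Ier3, which were at 0 in at least 1 mutant library.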
